A study of Mus musculus with 9 samples.

Results

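Immunoglobulin variable segments and the joining chain gene Jchain were followed in LSK cells, the bone marrow fraction that lacks mature lineage markers and carries Sca-1 and c-Kit. All genes whose symbol in the array's annotation begins with Ighv, Igkv or Iglv were taken, together with Jchain, each through a probeset that carries exactly 1 symbol. This gave 200 of the 30142 named genes: 113 heavy chain segments, 86 kappa segments, 0 lambda segments and Jchain. Jchain is listed in the annotation under its older symbol Igj, and each of the 200 genes had a single such probeset. The arrays came from 9 mice, 1 array per mouse, and the labels call them biological replicates. The 4 knockout mice (KO) were Abi1 fl/fl animals with the Mx1-Cre transgene, in which poly(I:C) turns on Cre and deletes Abi1, and the 5 control mice (WT) were Abi1 fl/fl animals without Cre. Poly(I:C) was given to KO and WT mice alike, as 3 injections at 8 to 9 weeks of age, and marrow was taken at 12 to 14 weeks. The Mx1 promoter responds to interferon in many cell types, so the deletion is not limited to LSK cells. Since Cre was present in KO mice alone, Cre itself and the loss of Abi1 cannot be told apart.

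Antibody genes are assembled in B lineage cells, where a heavy chain variable segment is joined to a diversity and a joining segment, and a kappa or lambda variable segment to a joining segment. Each B cell clone therefore transcribes mainly a single rearranged heavy and a single rearranged light chain segment, while unrearranged segments can give low germline transcripts in early lymphoid cells. The segments fall into families by sequence, written as the first number of the symbol. Jchain encodes the joining chain that links IgM and IgA into polymers, and it is known for its high transcription in plasma cells.

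Jchain was the 1 member with an entry among the RefSeq promoters used here, so its promoter alone is shown. The window spans 250 bases before to 50 after the start site, at chr5:88527848-88528147 on the minus strand of GRCm38.p6, and capitals mark the 4 matches to the E-box CANNTG, which basic helix-loop-helix factors bind.

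Jchain: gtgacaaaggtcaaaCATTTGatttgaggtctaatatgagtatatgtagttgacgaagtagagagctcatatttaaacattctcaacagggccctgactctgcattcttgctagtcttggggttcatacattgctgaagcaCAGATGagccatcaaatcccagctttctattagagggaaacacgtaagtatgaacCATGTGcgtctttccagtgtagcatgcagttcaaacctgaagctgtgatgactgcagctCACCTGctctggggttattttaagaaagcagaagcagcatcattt

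The E-box reads the same on both strands and is found in 72.3% of the 32851 RefSeq promoter windows of this length. The octamer ATGCAAAT, the element known from promoters of variable segments, was searched on both strands, and it shares letters with an E-box where a G follows it. It is not among the letters of this window, and 1.74% of all windows hold it. The heavy chain segments lie on chromosome 12, the kappa segments on chromosome 6 and Jchain on chromosome 5.

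Signals are log2 values as the authors deposited them, and probesets differ in how well they bind, so each is compared with itself across arrays. Background was set in each array as the 95th percentile of 1717 olfactory and vomeronasal receptor genes, at 5.29 to 5.64. KO replicate 1 had the highest background, and KO replicate 1 and WT replicate 5 had the lowest median correlations with the other arrays over all genes, 0.986 and 0.989 against 0.993 to 0.996. Abi1 itself lay at 5.59 to 6.11 in KO and 11.49 to 11.65 in WT. Of the LSK marker list, 7 of 10 genes were measured and all 7 lay above background, with Kit at 13.82 to 14.78. The other gate gene, Ly6a, was not analysed here.

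Most variable segments gave a signal in these sorted progenitors. The mean over 9 arrays lay above background for 164 of the 200 members (82.0%), against 53.2% of all genes and 35 of 114 variable segments of the T cell receptor (30.7%). By locus these were 94 of 113 heavy chain and 69 of 86 kappa segments. In every array 108 members were above background, and in none of the 9 were 18. Among the segments, RefSeq labels 189 as V segments and 10 as V segment pseudogenes, and 157 and 6 of these were above background. Since the sample is bulk RNA, fewer cells of a type and less RNA per cell cannot be told apart.

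The members belonged to 35 families, 15 of heavy chain and 20 of kappa segments. All members were above background in 16 families and no member in 5. The largest heavy chain family, Ighv1, had 51 of 61 members above background, and the largest kappa family, Igkv4, had 23 of 25. Ighv5 had 9 of 9, Ighv2 had 8 of 8, Ighv8 had 6 of 8, Igkv8 had 6 of 8 and Ighv6 had 5 of 5. Single members stood for Ighv15, Ighv16, Igkv7, Igkv18 and Igkv20, and these were the families with none above background.

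Signals of the members varied far more between mice than those of other genes. The highest and lowest array of a member differed by a median of 3.11 on the log2 scale, against 0.51 for all genes and 0.60 for T cell receptor segments. This range exceeded 2 for 128 members (64%) and for 1.93% of all genes. Over the genes above background the medians were 3.51 for members and 0.67 for all.

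A large share of the variation followed single arrays. WT replicate 4 held the highest value of 91 members (45.5%), while it held the highest value of 10.6% of all genes above background. WT replicate 1 was highest for 34 members (17%), against 4.91% of all genes above background. KO replicate 1 was highest for 25 members (12.5%), against 27.1% of those genes. The lowest value fell in WT replicate 2 for 58 members and in KO replicate 2 for 48. In the heat map of all segments the column of WT replicate 4 is red over most heavy chain rows.

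**Figure D1:**
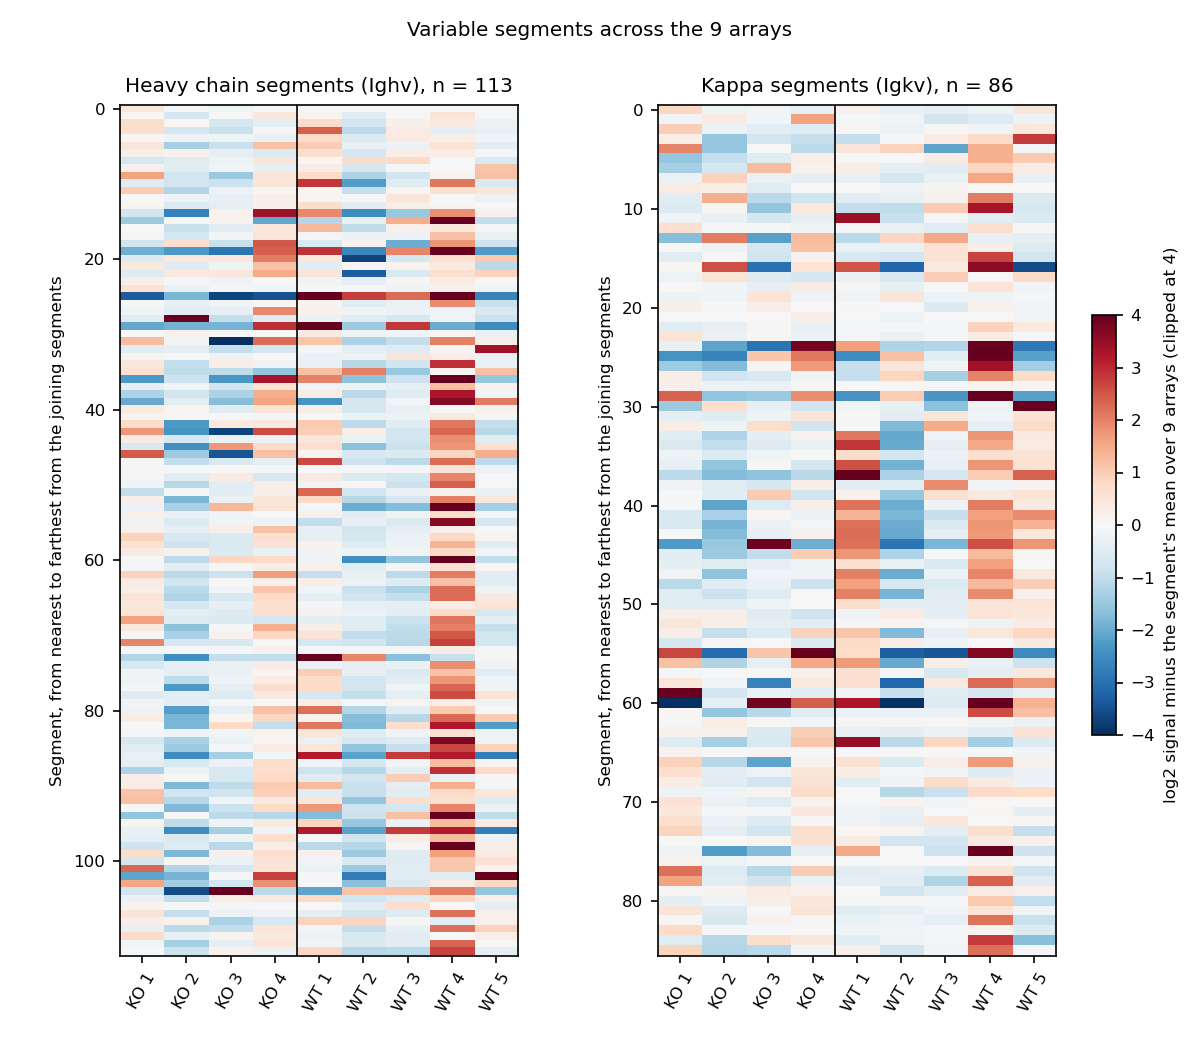
Log2 signal of each variable segment minus its own mean over the 9 arrays (colour, clipped at 4), with arrays in columns and the 113 heavy chain and 86 kappa segments in rows, ordered from nearest to farthest from the joining segments in RefSeq. The median deviation of all members was 0.96 in WT replicate 4 and between -0.59 and 0.24 in the other arrays.

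Jchain varied in the same sense as the segments. Its log2 signals were 11.14, 9.40, 10.45 and 12.10 in KO replicates 1 to 4 and 11.92, 9.92, 10.44, 13.83 and 11.24 in WT replicates 1 to 5. The groups overlapped, with WT replicate 4 highest, KO replicate 4 second and KO replicate 2 lowest. The median deviation of the members from their own means was also highest in WT replicate 4 (0.96), followed by KO replicate 4 (0.24) and WT replicate 1 (0.07). It was lowest in WT replicate 2 (-0.59) and KO replicate 2 (-0.53). The 3 highest arrays for Jchain were thus the 3 highest for the segments, in the same order, and the 2 lowest were shared. Jchain is 1 of the 200 members behind this median.

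Constant region genes were measured by 4 single-symbol probesets. Ighm, the mu constant region of IgM, had signals of 16.60, 16.06, 16.23 and 16.99 in KO and 16.79, 15.82, 16.31, 17.50 and 17.00 in WT. WT replicate 4 was again highest and WT replicate 2 lowest, over a span narrower than that of Jchain. Ighg2b, a gamma constant region, ran from 7.32 to 9.17 in KO and from 7.62 to 9.15 in WT. Ighg1, another gamma constant region, ran from 5.80 to 7.26 in KO and from 5.73 to 6.70 in WT, and here WT replicate 4 was the lowest array. Ighe, the constant region of IgE, stayed below background in all 9 arrays.

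Most markers of plasma cells had their highest value in WT replicate 4. Of the 18 genes of that list, 17 were above background and 12 had their highest value in this array. Summed signals of the marker lists add linear values before the log2 is taken. Bright genes such as Xbp1 therefore weigh more in them than Mzb1 or Irf4. The plasma cell sum was 12.81 to 13.31 in KO, 12.88 to 13.50 in WT and highest in WT replicate 4. Mzb1, a chaperone of antibody secretion, was 8.01 there and 5.38 to 6.67 in the other 8 arrays. Irf4, a transcription factor of plasma cells, was 7.19 against 5.03 to 5.71, and Derl3 of the endoplasmic reticulum was 6.88 against 5.81 to 5.93. Prdm1, the regulator of plasma cell identity, was 5.94 against 5.01 to 5.23 and was above background in this array alone. Mzb1, Irf4, Derl3 and Prdm1 had the largest steps of the list. Smaller ones were seen for Tnfrsf17 (5.76 against at most 5.67), Pou2af1 (6.39 against 6.30) and Xbp1 (11.70 against 11.50). Fkbp11, Tnfrsf13b and Ly6c1 were highest in KO replicate 1, Creb3l2 in KO replicate 2, Ell2 in WT replicate 2 and Edem2 in WT replicate 3.

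The mature B cell list was mixed, with 7 of 13 genes above background. Ms4a1 (CD20), Cd22, Cr2, Fcer2a, Blk and Pax5 lay below background in all 9 arrays. Cd37 at 10.67 to 11.70, the class II gene H2-Aa at 9.50 to 10.96 and Cd79b, a part of the B cell receptor, at 7.57 to 8.62 lay above it in all 9. Fcrla was highest in WT replicate 4, at 6.81 against 5.25 to 5.84 in the other arrays. The list's summed signal was 11.57 to 12.47 in KO and 12.01 to 12.43 in WT. Among early B lineage genes, 8 of 12 were above background, with summed signals of 11.82 to 12.46 in KO and 11.66 to 12.54 in WT. None passed an adjusted p of 0.05 in limma, and at an unadjusted p under 0.05, 7 of the 12 had higher values in KO and 0 lower, against 3.82% and 1.19% of all genes. Igll1, a part of the surrogate light chain, had the smallest p of these, with 5.17 to 5.50 in KO and 4.49 to 4.74 in WT (limma adjusted p = 0.438). It was above background in 2 arrays, KO replicates 3 and 4. Of the rest of these 7, Lef1 was above background in 0 arrays and Vpreb3 in 1. Ebf1 was above it in 6, Il7r in 8, and Vpreb1 and Vpreb2 in all 9. Other lists also had higher KO means: mast cell genes in 5 of 5 (3 with an unadjusted p under 0.05), neutrophil genes in 8 of 8 (1), megakaryocyte genes in 4 of 4 (1), NK cell genes in 6 of 7 (1), red cell genes in 5 of 6 (0) and mature B genes in 9 of 13 (1). Of all 30142 genes, 19357 had the higher mean in KO. The KO mean was lower for 12 of 18 plasma cell genes, 6 of 9 T cell genes and 6 of 7 LSK genes, with 0 at an unadjusted limma p under 0.05. Rag2, the recombinase subunit that acts on these segments, was below background in all 9 arrays. Dntt, the polymerase that adds bases at their junctions, was at 10.17 to 11.75. In the T cell list 2 of 9 genes were above background, with Cd3e below it in all arrays, and summed signals were 8.25 to 8.40 in KO and 8.24 to 8.39 in WT. The part of any of these cell types in the segment signals was not tested.

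**Figure D2:**
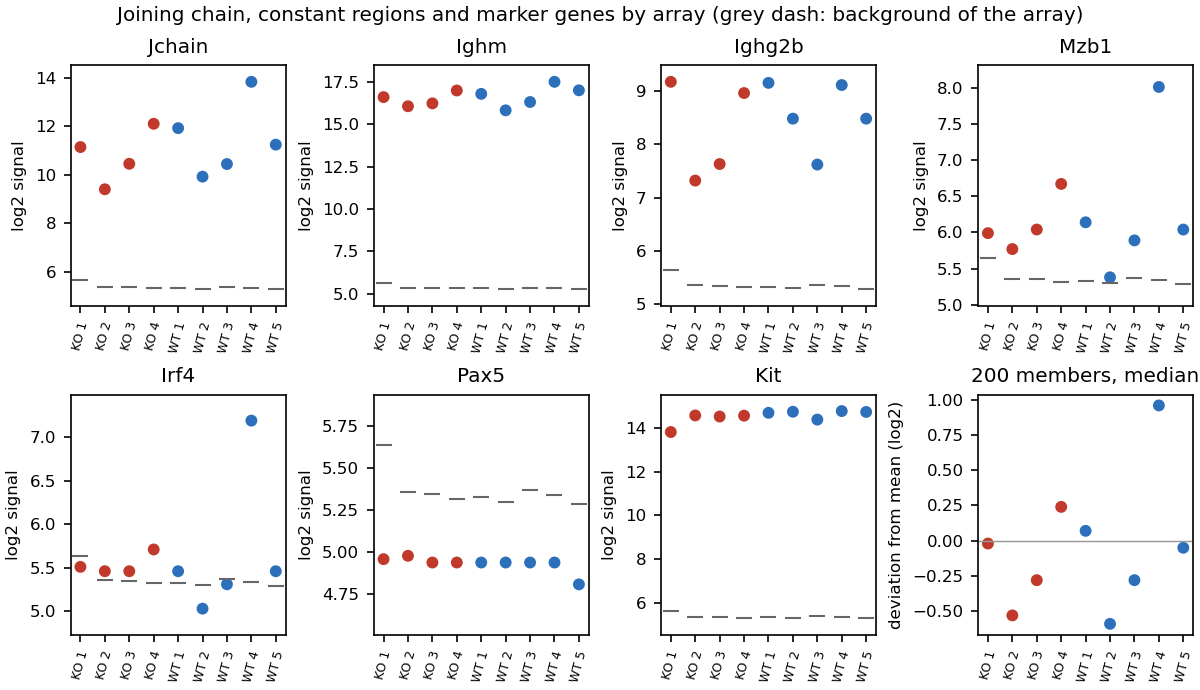
Log2 signal by array (KO red, WT blue, 1 point per mouse, grey dashes the background of each array; vertical scales differ) for Jchain, 2 constant regions, the plasma cell genes Mzb1 and Irf4, the B cell gene Pax5 and the gate gene Kit, and the median deviation of the 200 members. WT replicate 4 is highest for Jchain at 13.83, for Mzb1 at 8.01 and for the members at 0.96, while Pax5 stays below background.

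Some families moved as blocks. In Igkv4, the largest kappa family, the median deviation was 1.35 in WT replicate 1 and 1.29 in WT replicate 4, then 0.55 in WT replicate 5 and -1.78 in WT replicate 2. WT replicates 1 and 4 were the top pair for 12 of its 25 members, and over all 200 members they were the top pair for 36. Its brightest probeset, Igkv4-71, had 10.58, 9.12, 10.60 and 10.59 in KO and 12.73, 8.73, 10.45, 12.68 and 11.08 in WT. WT replicates 1, 4 and 5 lay above all KO arrays, while WT replicate 3 lay among them and WT replicate 2 lay below them.

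In Ighv8 all 8 members had their highest value in WT replicate 4, with a median deviation of 2.24 there and of -0.72 to 0.30 in the other arrays. Of these members, Ighv8-2 and Ighv8-4 lay below background in every array, with steps of 0.28 and 0.14 to the next array. In Ighv1 WT replicate 4 was highest for 41 of 61 members, with a median deviation of 1.76. Ighv1-2, the brightest probeset of that family, was at 16.60, 13.58, 16.25 and 16.30 in KO and 16.92, 14.81, 15.45, 17.97 and 14.91 in WT. RefSeq labels this segment a pseudogene. It was strong in every array, and KO replicate 2 was the lowest. How far transcripts of 1 segment reach the probes of its relatives was not tested, so members of a family are not taken as independent readings. Ighv1-62-2 and Ighv1-71 had the same values in every array, to 2 decimals, and each is counted as a member throughout.

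Other families did not follow WT replicate 4. Ighv2 varied little, with a median range of 1.34, and 5 of its 8 members were highest in WT replicate 1. Its brightest probeset, Ighv2-5, ran from 9.62 to 10.23 in KO and from 9.37 to 11.21 in WT. Both members of Ighv11, a family known from antibodies of innate-like B cells to phosphatidylcholine, were lowest in WT replicate 2. Ighv11-2 was at 10.44, 11.37, 11.39 and 12.44 in KO and 11.42, 7.66, 10.34, 11.58 and 11.88 in WT, and Ighv11-1 at 6.86 in WT replicate 2 against 9.85 to 12.62 elsewhere. Ighv12-3, known for the same specificity, went the other way: WT replicate 2 was its highest array at 12.47, and the other 8 ran from 8.89 to 11.65. The members of Ighv10 were lowest in KO replicate 3, at 6.97 for Ighv10-1 and 6.24 for Ighv10-3, against 8.29 to 13.25 and 8.23 to 12.13 in the other arrays.

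The brightest probesets of other families, named by rule, were high in different arrays. Ighv5-16 was at 12.76 in KO replicate 4 and 6.65 to 11.27 elsewhere, and Ighv6-3 at 14.12 in WT replicate 4, 13.31 in KO replicate 4 and 12.01 in WT replicate 1, with the others at 7.69 to 9.20. Ighv3-6 was at 4.14 in KO replicate 3, below background there, and at 7.44 to 10.93 in the other arrays. Igkv5-39 reached 15.02 in WT replicate 4 and 13.70 in KO replicate 4, with a low of 6.95 in KO replicate 3. These 4 segments thus shared high values in KO replicate 4. The spread was smaller for Igkv12-89 (5.40 to 9.13), Igkv6-14 (6.42 to 8.98) and Igkv2-109 (6.73 to 8.23).

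Single-array peaks, in which 1 mouse stood far above all others, were nearly confined to the members. A peak was counted where the highest array exceeded the second highest by at least 2 on the log2 scale, a 4-fold step, and lay above its background. This held for 30 of the 200 members and for 36 of all 30142 genes (0.119%), so 6 other genes had one, each in WT replicate 5. With a step of 3, all 15 genes were members. No variable segment of the T cell receptor had a peak. The peaks were chosen by their values and are given as a description. Just inside the limit were Igkv3-4 and Igkv1-133, with steps of 2.02 and 2.04, and just outside were Ighv1-86 and Ighv3-1, with 1.87 and 1.82.

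Of the 30 peaks, 18 fell in WT replicate 4, 5 in WT replicate 1, 4 in WT replicate 5 and 1 each in KO replicates 1, 2 and 3. KO replicate 4 and WT replicates 2 and 3 had 0. In all, 3 lay in KO and 27 in WT, and with WT replicate 4 left out 16 were counted, 4 of them in KO.

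**Figure D3:**
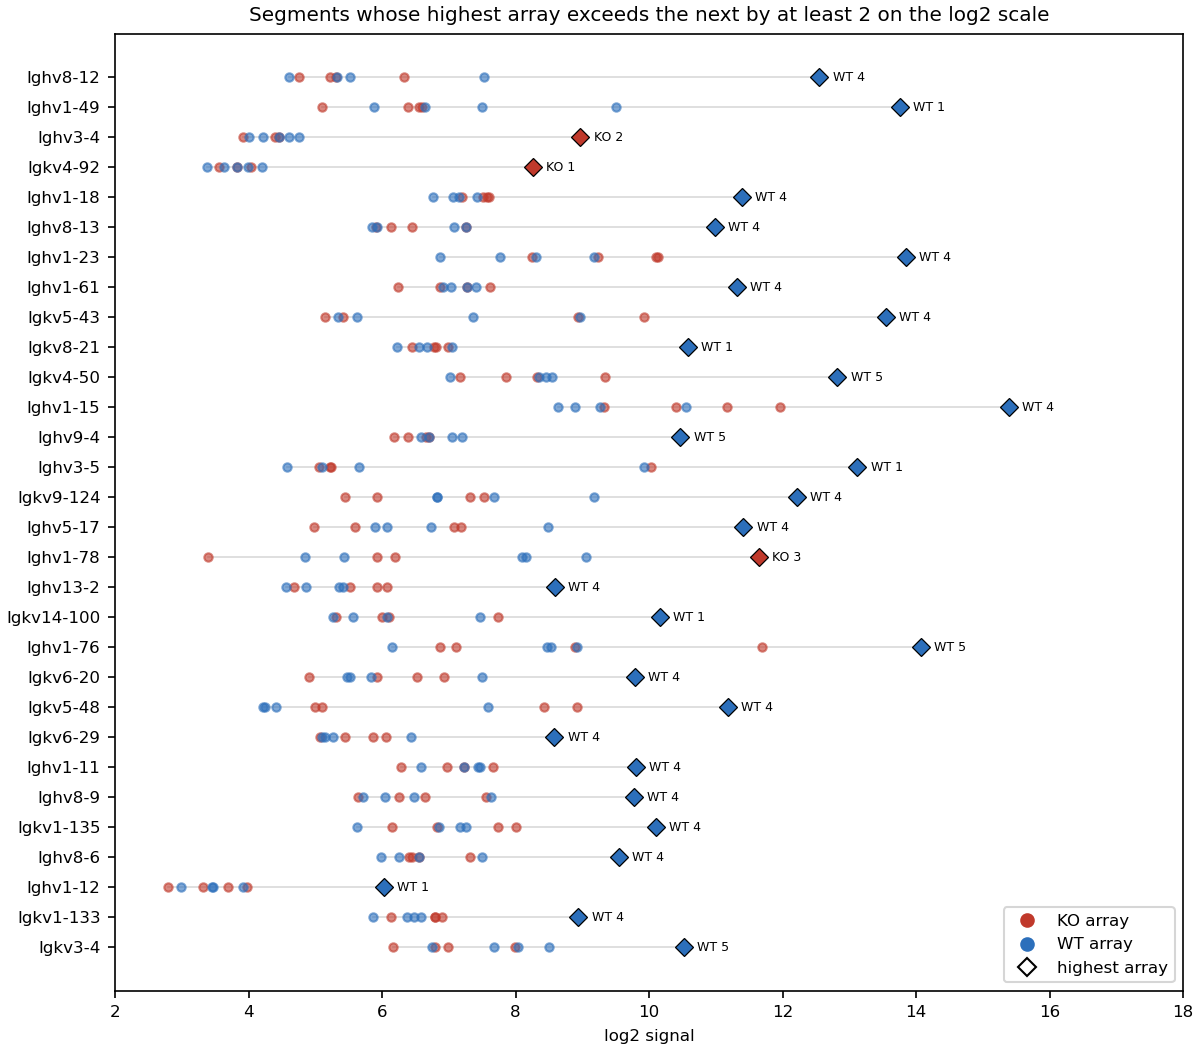
Log2 signals of the 30 segments with a single-array peak, ordered by the step from the highest array (diamond, labelled with its mouse) to the next, with KO arrays in red and WT arrays in blue. The steps run from 2.02 to 5.02, and 18 of the 30 diamonds are WT replicate 4.

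WT replicate 4 held peaks of 11 heavy chain and 7 kappa segments. Ighv8-12 showed the largest step, at 12.55 there against 7.53 in WT replicate 3 and 4.61 to 6.33 in the rest, a 32.4-fold step. Ighv1-15 was at 15.39 against 8.64 to 11.96, and Ighv1-23 at 13.85 against 6.86 to 10.14. Ighv1-15 and Ighv1-23 lay above background in all 9 arrays, and Ighv8-12 in 5. Ighv1-18, Ighv1-61 and Ighv8-13 were at 11.39, 11.31 and 10.98 in WT replicate 4. Outside it they lay at 6.76 to 7.60, 6.24 to 7.62 and 5.85 to 7.26. Ighv5-17 reached 11.41 and Ighv13-2 reached 8.59, with second highest arrays at 8.49 and 6.08. Of the kappa segments Igkv5-43 was at 13.55 against 5.14 to 9.92, and Igkv9-124 at 12.21 against 5.44 to 9.17. The peaks of this mouse were thus spread over many heavy and kappa segments.

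Peaks of 3 heavy chain and 2 kappa segments lay in WT replicate 1. Ighv1-49 was at 13.76 there, 9.50 in WT replicate 2 and 5.10 to 7.50 in the other arrays. Ighv3-5 was at 13.12, 10.03 in KO replicate 4 and 9.92 in WT replicate 3, and 4.58 to 5.65 in the rest. Igkv8-21 was at 10.58 against 6.22 to 7.05, and Igkv14-100 at 10.16 against 5.26 to 7.74. Both locus types therefore had a peak in this mouse.

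WT replicate 5 held peaks of 2 heavy chain and 2 kappa segments. Ighv1-76 was at 14.07, with 11.69 in KO replicate 4 and 6.15 to 8.92 elsewhere. Ighv9-4 was at 10.47 against 6.18 to 7.20. Igkv4-50 was at 12.82 against 7.02 to 9.34, although its family was highest in WT replicates 1 and 4.

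KO replicates 1, 2 and 3 held 1 peak each, so a partner peak of the other locus was not possible. The peak rule leaves out segments bright in a second mouse, such as Igkv4-68, highest in KO replicate 3 at 12.08. In KO replicate 1 Igkv4-92 was at 8.26, while the other 8 arrays lay at 3.37 to 4.20, all below background. In KO replicate 2 Ighv3-4 was at 8.97 and the others, also below background, at 3.92 to 4.76. In KO replicate 3 Ighv1-78 was at 11.64, with a second highest value of 9.05 in WT replicate 4. Igkv4-92 and Ighv3-4 thus gave a signal above background in a single mouse.

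Other segments had 2 separate levels, with at least 2 arrays on each side of an empty interval of 3 or more on the log2 scale. This description was chosen after the values were seen, and it held for 7 members and 11 of all genes (0.0365%). The 4 others were Abi1, Gdpd3, Ifi44l and Klk1b22. Igkv19-93 had the widest interval. Its signals were 6.66, 12.95, 17.20 and 15.77 in KO and 16.57, 5.90, 12.81, 17.51 and 14.73 in WT. It was low in KO replicate 1 and WT replicate 2 and bright in the other 7 arrays.

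Igkv1-88 was at 11.69, 5.94, 10.12 and 13.06 in KO and 9.74, 5.72, 5.58, 12.72 and 6.50 in WT, so 3 KO and 2 WT arrays were high. Igkv8-30 was at 9.14, 11.65, 6.07 and 9.62 in KO and 11.57, 5.89, 9.41, 12.64 and 5.52 in WT, with 3 high arrays in each group. Igkv4-68 was high in KO replicate 3 (12.08) and in WT replicates 1, 4 and 5 (9.95 to 10.76). Ighv3-1 was high in KO replicate 4 (10.30) and in WT replicates 1, 3 and 4 (9.85 to 12.61). The high arrays thus differed from segment to segment, and except for Ighv9-3 each segment was high in mice of both groups.

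**Figure D4:**
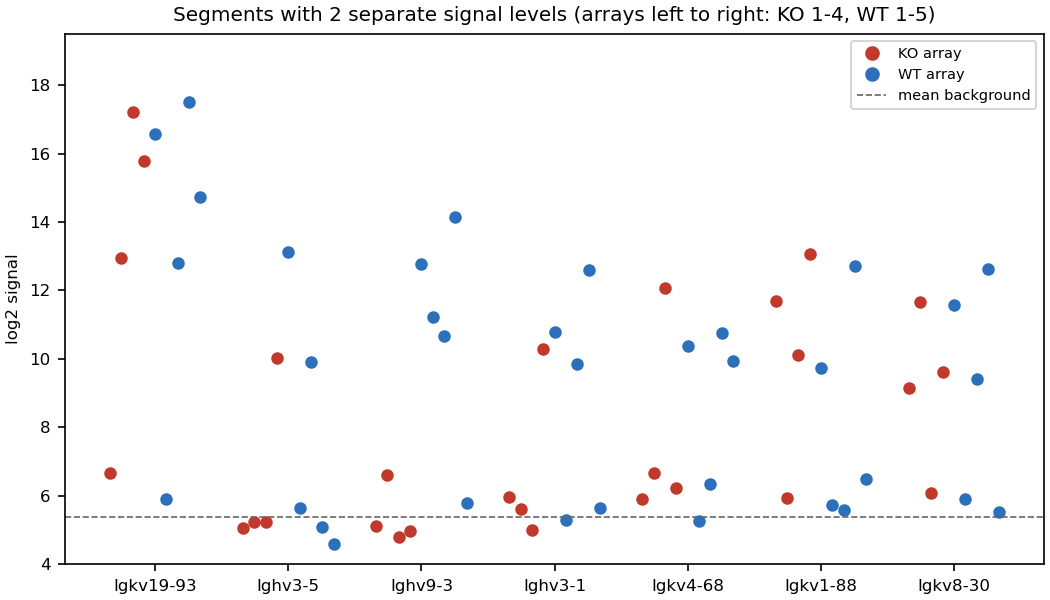
Log2 signals of the 7 segments with 2 separate levels, with 1 point per array (KO red, WT blue) and the mean background as a dashed line. Igkv19-93 is low in 2 arrays and high in 7, and Ighv9-3 is high in WT replicates 1 to 4 only.

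Ighv9-3 was the member with the largest difference between the groups. Its signals were 5.11, 6.62, 4.79 and 4.97 in KO and 12.76, 11.21, 10.67, 14.15 and 5.80 in WT. WT replicates 1 to 4 lay far above every KO array, but WT replicate 5 lay among the KO arrays, so the groups overlapped. The difference was -5.55 (SE 1.51, 95% interval -8.99 to -2.10). KO replicates 1, 3 and 4 lay below background, so no fold is given. The difference did not pass the test over all genes (limma adjusted p = 0.786, exact two-sided permutation p = 0.0238), and leaving out single arrays gave -6.82 to -4.74. In WT replicate 5, where Ighv9-3 was low, its relative Ighv9-4 had its peak.

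The comparison of KO with WT asked whether loss of Abi1 shifts these transcripts, and no member passed. At an adjusted p of 0.05, limma called 0 of the 200 members and 1 of 30142 genes (0.00332%), which was Abi1. At an unadjusted p under 0.05, 5 members (2.5%) had lower and 0 had higher values in KO, against 5.01% of all genes, 1.19% lower and 3.82% higher. Without WT replicate 4, 3 were higher and 3 lower. Without KO replicate 2, 4 were higher and 2 lower, and without KO replicate 3, 2 were higher and 4 lower. Leaving out another array gave 16 in all without WT replicate 2 and 8 without WT replicate 3. It gave 3 without KO replicate 1, KO replicate 4, WT replicate 1 or WT replicate 5. The KO and WT arrays stood fully apart for 0 members, against 0.856% of all genes. The standard error of a difference had a median of 0.62 for members and 0.10 for all genes, so moderate differences between the groups were not detectable for most members with 4 and 5 mice.

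The KO mean was lower for 138 members (69%) and higher for 62, while it was lower for 35.8% of all genes (46.5% after quantile normalization and 56.0% after centring each array, against 72.5% and 75.0% of members). The median difference was -0.25 for members and 0.034 for all genes. This difference rests on WT replicate 4, without which the median was 0.001 and the KO mean was lower for 100 of 200. It was -0.11 without KO replicate 2, -0.14 without WT replicate 1 and -0.43 without WT replicate 2. With both WT replicate 1 and WT replicate 4 left out, a choice made once the values were known, the median was 0.12 and 67 members had the lower mean in KO. The KO mean was lower for 22 of 25 segments of Igkv4 (median -0.83) and for 44 of 61 of Ighv1 (median -0.26). It was lower for 2 of 7 segments of Igkv1 and for 2 of 8 of Igkv8. The curves of the differences show the members' distribution moving to 0 once WT replicate 4 is left out.

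**Figure D5:**
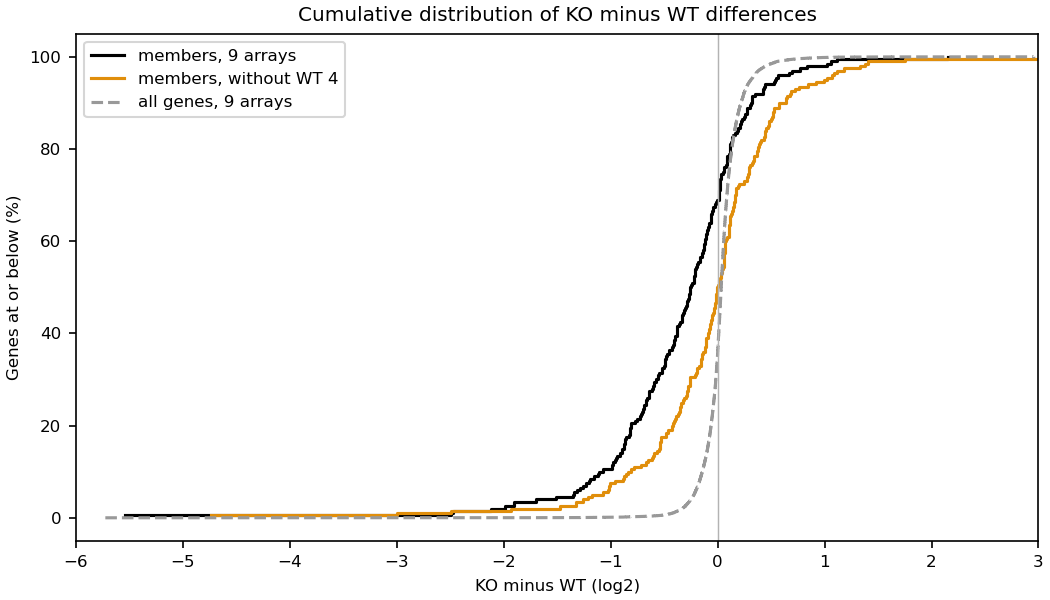
Cumulative percentage of genes (vertical) at or below a given KO minus WT difference on the log2 scale (horizontal), for the 200 members over 9 arrays, the members without WT replicate 4, and all genes. The members' median moves from -0.25 to 0.001 when WT replicate 4 is left out, and all genes have a median of 0.034.

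Mean Jchain signal was 10.77 ± 1.14 in the 4 KO mice and 11.47 ± 1.52 in the 5 WT mice (± SD), a difference of -0.70 (SE 0.84, 95% interval -2.62 to 1.23). The difference did not pass (limma adjusted p = 0.807, exact two-sided permutation p = 0.5). Without WT replicate 4 it was -0.11 and without KO replicate 2 it was -0.24, while it was -1.14 without KO replicate 4 and -1.08 without WT replicate 2. Ighm differed by -0.21 (SE 0.34), Ighg2b by -0.30 (SE 0.47), Ighg1 by 0.49 (SE 0.33) and Ighe by 0.15 (SE 0.09). None of these passed (limma adjusted p = 0.786 to 0.847), and the intervals of all 4 include 0. With 1 array left out, Ighm ranged from -0.43 without WT replicate 2 to -0.01 without WT replicate 4. Ighg1 ranged from 0.26 without KO replicate 1 to 0.75 without KO replicate 3, Ighe from 0.054 without KO replicate 1 to 0.19, and Ighg2b from -0.60 without KO replicate 1 to 0.019 without KO replicate 2.

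The other 4 members with an unadjusted p under 0.05 were kappa segments, each with a limma adjusted p of 0.786. Igkv6-13 was at 4.76, 5.39, 5.80 and 6.52 in KO and 6.21, 6.31, 6.62, 7.73 and 7.36 in WT, a difference of -1.23 (SE 0.43). KO replicate 4 lay between the WT arrays, and the other KO arrays lay below all of them. Igkv4-57-1 differed by -2.47 (SE 1.03), with 5.68 to 6.38 in KO and 11.52, 6.17, 6.73, 8.43 and 9.80 in WT. Its mean difference came from WT replicates 1, 4 and 5. Igkv4-79 differed by -1.20 (SE 0.52), with 8.09 to 8.91 in KO and the same WT arrays high, at 10.79, 10.47 and 10.17. Igkv13-87, a pseudogene in RefSeq, differed by -0.55 (SE 0.23), with all arrays at 3.09 to 4.54, below background.

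Position along the locus was taken from the RefSeq order, and each locus was split into 3 stretches of like size from the joining segments outwards. Of the heavy chain segments 32 of 38, 29 of 38 and 33 of 37 were above background, with 5, 6 and 7 single-array peaks. WT replicate 4 was the highest array for 10, 29 and 23 of them, and the median range was 2.51, 3.18 and 3.50. The nearest stretch, from Ighv2-1 to Ighv6-4, holds all of Ighv2 and Ighv5 and no member of Ighv1, so position and family cannot be told apart here. Of the kappa segments 21 of 29, 26 of 29 and 22 of 28 were above background, with 5, 2 and 5 peaks. The median range was 2.37, 3.73 and 1.88, highest in the middle stretch, from Igkv5-48 to Igkv4-90, which holds most of Igkv4.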

How the data were processed

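RNA of sorted LSK cells from 9 mice (5 ng per array, pre-amplified) was hybridised to Affymetrix whole-transcript arrays, per the labels' protocols. The authors deposited 1 table of 72688 probesets by 9 arrays, used here as log2 signals. Partek 6.6 is named in the submitters' processing notes. For log base, background correction and normalization the entry is: not given in the sources used here. The log2 scale is read from the values, which run from 1.84 to 19.45.

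Of 65956 target probesets, 30604 carried 1 symbol and 2146 several, and 33206 are unnamed here. Symbols were updated through Entrez identifiers to RefSeq (GRCm38.p6), 827 in all, and the brightest probeset stood for each gene. Each difference was fitted over all 30142 genes with limma 3.58.1 in R 4.3.3 (lmFit, eBayes, no covariate, Benjamini-Hochberg, threshold 0.05), checked on simulated arrays. Exact tests ran over the 126 splits of 9 arrays. Precision is limited by how few arrays there are.

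The members, the gene lists and the tests were chosen with earlier results of these data known. Genes named were Jchain, the constant regions, the 20 peaks with the largest step, members with an unadjusted p under 0.05 (at most 5 per direction), members without overlap (0 found) and the brightest member of families with 3 or more above background, plus Abi1, Kit and list markers. Ighv10, Ighv11, Ighv12-3, the segments with 2 levels and those at the edge of the peak limit were named after their values were seen. Probesets with several symbols, 24 of which list a variable segment, entered no comparison. KO and WT share replicate numbers, and the labels do not say whether these pair the mice. Same-numbered arrays had correlations of -0.178, 0.146, -0.013 and 0.27 over genes above background. Over members these were -0.054, 0.189, -0.072 and 0.3, while pairs with unlike numbers ran from -0.347 to 0.331. The median deviation of the members had the same order in KO and WT replicates 1 to 4: highest in 4, then 1, 3 and 2. Jchain and Ighm had this order too. Whether same-numbered mice were handled together was not tested.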

Additional observations from a re-analysis of the deposited data

Results flagged for a closer look

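In 15 of 88 groups tested, over 43 named genes and the median of the members, 1 array lay farther from the rest than Dixon's 95% value allows, and chance flags about 1 in 20 groups. Most are the single-array peaks again, which were chosen for such a step, so their number says nothing more. In WT replicate 4 these were Ighv1-15 (15.39, other WT arrays 8.64 to 10.56), Ighv1-18 (11.39, others 6.76 to 7.42), Ighv1-61 (11.31, others 6.91 to 7.40), Ighv8-13 (10.98, others 5.85 to 7.26) and Ighv13-2 (8.59, others 4.56 to 5.41). In WT replicate 5 they were Igkv4-50 (12.82, others 7.02 to 8.55) and Ighv9-4 (10.47, others 6.58 to 7.20), and in WT replicate 1 Igkv8-21 (10.58, others 6.22 to 7.05). Among KO arrays Ighv3-4 in replicate 2 (8.97, others 3.92 to 4.45), Igkv4-92 in replicate 1 (8.26, others 3.56 to 4.03) and Ighv3-5 in replicate 4 (10.03, others 5.05 to 5.24) stood high.

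KO replicate 2 stood low for the RefSeq pseudogene Ighv1-2 (13.58, other KO arrays 16.25 to 16.60), Igkv4-71 (9.12, others 10.58 to 10.60) and Ighv1-49 (5.10, others 6.39 to 6.6). Ighe was 4.97 in KO replicate 1 and 4.57 in the other KO arrays, all below background.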

How the results depend on the processing

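The count of called members was 0 under every alternative run: quantile normalization, median centring, dim genes left out, trend with robust variances, mean over probesets, each array left out, the pairs of arrays left out and the replicate block. The 5 members with an unadjusted p under 0.05 became 3 to 16 with single arrays left out (16 without WT replicate 2), 2 without KO replicate 1 and WT replicate 5, and 3 without KO replicate 1 and WT replicate 4, a pair chosen after seeing the data. With the replicate block there were 15, of which 13 lower and 2 higher, and the labels do not say whether its numbers pair the mice. The unadjusted limma p fell with this block for Jchain (0.430 to 0.0612), Ighv9-3 (0.00575 to 0.000766) and Igkv6-13 (0.0202 to 0.000557). It rose for Igkv13-87 (0.0402 to 0.134), Igkv4-57-1 (0.0418 to 0.0620) and Igkv4-79 (0.0469 to 0.156). The limma adjusted p of each was 0.810 with the block. Without WT replicates 1 and 4, also chosen after seeing the data, Jchain differed by 0.24 in place of -0.70, Ighm by 0.093 and Ighg2b by 0.077. With single arrays left out Ighg2b ranged from -0.60 without KO replicate 1 to 0.019 without KO replicate 2. The 30 single-array peaks became 16 without WT replicate 4 and up to 36 without KO replicate 4, 71 at a step of 1 and 15 at a step of 3. Members above background numbered 136 with percentile 99 and 163 against antigenomic probesets, in place of 164. Dim segments near background limit what can be seen of their differences. The causes of these changes were not tested.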

Other observations

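Of the 24 probesets that list a variable segment together with other symbols, 20 had a mean above background and 11 had their highest value in WT replicate 4. In 1 of them all 9 symbols belong to the lambda locus. Its log2 signals were 10.52, 9.45, 10.40 and 11.12 in KO and 10.52, 9.80, 11.15, 13.74 and 8.62 in WT, so WT replicate 4 again stood highest, by 2.59, and WT replicate 5 lowest. The kappa joining segment Igkj3 ran from 6.82 to 8.08 in KO and from 6.68 to 7.68 in WT, and its highest array was KO replicate 4.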
